A study of Homo sapiens with 14 samples.

Results

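KLF2 and 6 genes tied to T-cell trafficking were followed in 7 T-ALL cell lines: KLF3, S1PR1, CCR7, IL7R, CXCR4 and FCMR, the gene formerly called FAIM3. A probe set was taken when it named 1 of these genes and no other gene, which gave 15 of the 42892 probe sets with a gene symbol and 7 of the 19775 genes that some probe set named alone. The arrays were 14 Affymetrix HG-U133 Plus 2.0 arrays of total RNA, a pair for each of Jurkat, CCRF-CEM, Molt-4, HPB-ALL, TALL-1, P12-ICHIKAWA and ALL-SIL, all established human lines of T-cell acute lymphoblastic leukemia. In each line 1 culture received AS605240, a PI3K inhibitor, at a concentration equal to its own IC50, and 1 received vehicle, both for 6 h. The inhibitor concentration was therefore set line by line and cannot be told apart from the line. With 1 array per line and treatment, the 7 lines served as the replicates of the treatment.

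Kruppel-like factors are zinc-finger proteins that bind CACCC-type sequences. In mouse T cells KLF2 keeps naive cells quiescent and drives S1PR1, the receptor with which T cells follow sphingosine-1-phosphate out of the thymus and lymph nodes. CCR7 and CXCR4 are chemokine receptors that guide cells toward lymph nodes and bone marrow, IL7R is the alpha chain of the receptor for the survival cytokine IL-7, and FCMR is the receptor for the Fc part of IgM. In normal T cells PI3K and Akt keep FOXO1 out of the nucleus, and FOXO1 is known from mice to sustain Klf2, Ccr7 and Il7r. The comparison asks how blocking PI3K changed the RNA of these genes in the 7 lines.

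The cultures carried T-cell RNA. Of 10 T-cell markers, 9 had a signal over 50 on all 14 arrays, and the other one, CD2, on 8, where a signal of 50 serves here as a mark of a dim probe set. The B-cell genes MS4A1, PAX5 and FCRLA were over 50 on no array, while CD79A was on 12, CD79B and CR2 on 5 each and BLK on 4. The 7 B-cell markers measured summed to a signal of 84.4 to 1510 under AS605240 and 68.2 to 923 under vehicle, with 1 higher and 1 lower at an adjusted p under 0.05 by limma, and their part in the results was not tested. Of 6 myeloid markers 5 were over 50 on no array and LYZ on all 14, and of 8 stromal and epithelial markers 6 were over 50 on none and COL1A1 and KRT8 on all 14. Median signals of the arrays ran from 19.9 to 25.0, and 36.6% to 39.6% of probe sets were over 50. P12-ICHIKAWA and TALL-1 stood apart from the rest in being nearly alike: their vehicle arrays correlated at r = 0.994 over the brightest probe set of each gene, while the other 20 pairs of lines lay between 0.908 and 0.953. They may not be independent replicates, so that each main result is also given with both averaged into 1 line and, as an alternative chosen after the data were seen, with both left out. The median change of all probe sets between treatments was 0.03 ± 0.02 on the log2 scale (SD, n = 7).

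KLF2, FCMR and S1PR1 were higher under AS605240, and KLF3, CCR7, IL7R and CXCR4 did not pass the test. At an adjusted p under 0.05 with a fold change over 1.5, 3 of the 15 probe sets were higher under AS605240, where 0.926% of all probe sets were, and 0 were lower, where 0.392% were. The 3 were 1 of the 2 probe sets of KLF2 and both of FCMR. With each gene reduced to its brightest probe set, 2 of the 7 genes were higher and 0 lower, where 1.07% and 0.506% of all genes were. At an adjusted p under 0.05 alone, the S1PR1 probe set joined them, which made 4 of 15 against 10.4% of all probe sets, and again 0 were lower against 6.03%. At an unadjusted p under 0.05, 5 of the 15 were higher and 1 was lower, and no share of all probe sets was calculated at that threshold. These tests were made with limma, with the line as a block and Benjamini-Hochberg adjustment over all 42892 probe sets. In RNA of whole cultures, more RNA per cell and more cells that carry it cannot be told apart.

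**Figure D1:**
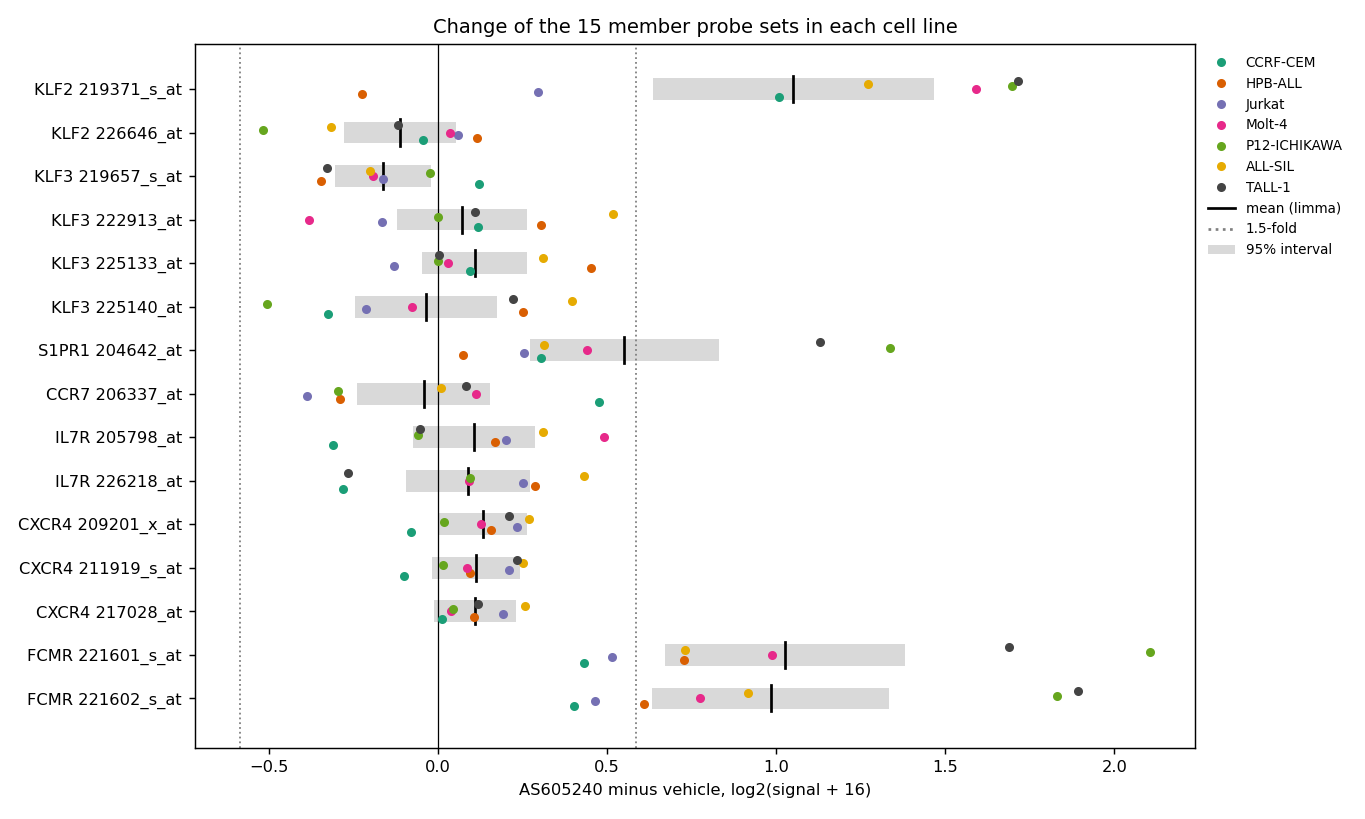
Change of the 15 probe sets of the 7 genes, AS605240 minus vehicle, on the log2(signal + 16) scale. Each point is 1 cell line, the black bar is the limma mean, the grey bar its 95% interval and the dotted lines mark a fold change of 1.5; both FCMR probe sets and KLF2 219371_s_at lie beyond it on average, with HPB-ALL the only line below 0 for that KLF2 probe set.

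The promoters of the 3 genes that changed are shown because these genes moved under the same treatment, and because KLF2 and the FOXO factors upstream of it are proteins that bind DNA. The sequences are those of RefSeq (GRCh38.p14), from 250 bases before to 50 bases after each gene start, and 5 of the 7 genes matched an entry (KLF2, S1PR1, IL7R, CXCR4 and FCMR). Both strands were searched for 3 motifs: the forkhead site GTAAACA, the CACCC box CACCC and the MEF2 site. Capitals mark the matches, and GGGTG is CACCC read on the opposite strand.
KLF2 chr19:16324576-16324875 (plus strand): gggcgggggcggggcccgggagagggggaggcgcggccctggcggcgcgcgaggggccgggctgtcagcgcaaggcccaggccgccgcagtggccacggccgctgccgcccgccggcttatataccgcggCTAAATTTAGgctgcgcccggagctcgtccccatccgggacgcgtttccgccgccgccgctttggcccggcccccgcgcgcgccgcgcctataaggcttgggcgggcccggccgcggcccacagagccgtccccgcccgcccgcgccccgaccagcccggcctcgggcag
S1PR1 chr1:101236769-101237068 (plus strand): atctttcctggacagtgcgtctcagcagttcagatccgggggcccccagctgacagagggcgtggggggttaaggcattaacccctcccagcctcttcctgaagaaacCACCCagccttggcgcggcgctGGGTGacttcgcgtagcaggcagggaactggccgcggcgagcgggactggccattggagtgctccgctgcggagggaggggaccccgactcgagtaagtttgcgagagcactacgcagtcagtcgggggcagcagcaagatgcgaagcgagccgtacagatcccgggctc
FCMR chr1:206923147-206923446 (minus strand): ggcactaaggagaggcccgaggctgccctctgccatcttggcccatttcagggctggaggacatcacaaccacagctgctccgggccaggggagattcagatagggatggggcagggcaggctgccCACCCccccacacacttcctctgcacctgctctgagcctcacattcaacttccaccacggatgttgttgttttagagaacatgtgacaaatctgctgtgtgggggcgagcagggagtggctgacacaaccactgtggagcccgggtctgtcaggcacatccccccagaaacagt

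The KLF2 window held 1 match to the MEF2 site, CTAAATTTAG, which began 120 bases before the gene start. The S1PR1 window held 2 matches to CACCC, at 142 and 120 bases before the start, and the FCMR window held 1, at 124 bases. Of 35116 promoter windows of that length, 59.9% held CACCC, 2.99% the MEF2 site and 3.42% the forkhead site. CACCC was in 3 of the 5 windows (S1PR1, CXCR4 and FCMR), the MEF2 site in 1 and the forkhead site in 0. These matches describe the letters only, and no binding was measured. The motifs were chosen after the promoters had been read, so the shares of all windows do not test the matches.

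KLF2 (chr19:16324826-16328685, GRCh38.p14) was measured brightly by 219371_s_at alone. Its signal under AS605240 was 435 in CCRF-CEM, 140 in HPB-ALL, 105 in Jurkat, 42.1 in Molt-4, 122 in P12-ICHIKAWA, 503 in ALL-SIL and 177 in TALL-1. Under vehicle it was 208 in CCRF-CEM, 166 in HPB-ALL, 82.6 in Jurkat, 3.29 in Molt-4, 26.4 in P12-ICHIKAWA, 199 in ALL-SIL and 42.9 in TALL-1. KLF2 was thus higher with the inhibitor in every line except HPB-ALL, while the ranges of the 2 groups overlapped because the lines started from very different levels. On the log2(signal + 16) scale the mean was 7.51 ± 1.10 under AS605240 and 6.46 ± 1.34 under vehicle (SD, n = 7 each). The change of 1.05 ± 0.19 (SE; 95% interval 0.63 to 1.47) is a fold of 2.07, with an adjusted p of 0.00183 by limma and p = 0.0312 by an exact two-sided sign-flip test over the 7 lines, whose smallest possible p is 0.0156.

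The 3 lines with the least KLF2 under vehicle changed most, a relation in which the vehicle value enters both sides. The change in KLF2 was 1.71 in TALL-1, 1.70 in P12-ICHIKAWA and 1.59 in Molt-4, the 3 lines under a signal of 50 with vehicle, and of these Molt-4 alone stayed under 50 with AS605240. Among the lines over 50 with vehicle it was 1.27 in ALL-SIL and 1.01 in CCRF-CEM, where the plain signal was 2.53-fold and 2.09-fold higher with the inhibitor. Jurkat and HPB-ALL were also over 50 with vehicle, and moved by 0.30 and -0.22. Both started below ALL-SIL and CCRF-CEM and still changed less, so the relation did not hold among these lines. With P12-ICHIKAWA and TALL-1 averaged into 1 line, the change was 0.94, a fold of 1.92, with an adjusted p of 0.00657 by limma and p = 0.0625 by the exact two-sided sign-flip test over 6 lines, and with both left out it was 0.79, with an adjusted p of 0.0276 by limma. The other KLF2 probe set, 226646_at, stayed under 50 on all 14 arrays, between 5.91 and 12.1 under AS605240 and between 5.38 and 20.5 under vehicle, and its change of -0.11 had an adjusted p of 0.404 by limma.

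FCMR (chr1:206903317-206923196) rose in all 7 lines. With 221601_s_at the signal under AS605240 was 14.2 in CCRF-CEM, 336 in HPB-ALL, 129 in Jurkat, 21.6 in Molt-4, 574 in P12-ICHIKAWA, 249 in ALL-SIL and 484 in TALL-1. Under vehicle it was 6.40 in CCRF-CEM, 197 in HPB-ALL, 85.7 in Jurkat, 2.99 in Molt-4, 121 in P12-ICHIKAWA, 144 in ALL-SIL and 139 in TALL-1. CCRF-CEM and Molt-4 were under 50 with both treatments, and the other 5 lines were over 50 with both, so that the same lines were bright with both treatments by this probe set. Means were 7.43 ± 1.74 under AS605240 and 6.40 ± 1.43 under vehicle on the log2 scale (SD, n = 7 each), a change of 1.03 ± 0.17 (SE; 95% interval 0.67 to 1.38) and a fold of 2.04. The adjusted p was 0.000727 by limma, and the exact two-sided sign-flip p was 0.0156, the smallest that 7 lines can give.

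Both FCMR probe sets gave the same account. Probe set 221602_s_at had a median signal of 134 (range 11.4 to 293) under AS605240 and of 63.6 (range 0.712 to 97.8) under vehicle, and changed by 0.98, a fold of 1.98, with an adjusted p of 0.000894 by limma and a higher value in 7 of 7 lines. The 2 lines that are nearly alike changed most, by 2.11 in P12-ICHIKAWA and 1.69 in TALL-1 with 221601_s_at, where the plain signal was 4.74-fold and 3.48-fold higher with the inhibitor. In the other lines the change ran between 0.43 in CCRF-CEM and 0.99 in Molt-4. Counted as 1 line, the pair left a change of 0.88, with an adjusted p of 0.00142 by limma. The exact two-sided sign-flip p over 6 lines was then 0.0312, the smallest that 6 lines can give. Without both lines the change was 0.68, a fold of 1.60, with an adjusted p of 0.000801 by limma. Their weight thus lay in the size of the FCMR change and not in its direction.

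S1PR1 (chr1:101236899-101242313) had 1 probe set, 204642_at, and a low signal. Under AS605240 it was 112 in CCRF-CEM, 1.27 in HPB-ALL, 64.3 in Jurkat, 20.4 in Molt-4, 60.0 in P12-ICHIKAWA, 11.8 in ALL-SIL and 69.6 in TALL-1. Under vehicle it was 87.5 in CCRF-CEM, 0.388 in HPB-ALL, 51.3 in Jurkat, 10.8 in Molt-4, 14.1 in P12-ICHIKAWA, 6.34 in ALL-SIL and 23.1 in TALL-1. Every line was higher with the inhibitor, and P12-ICHIKAWA and TALL-1 crossed a signal of 50, which made 4 lines over 50 under AS605240 and 2 under vehicle. The log2 means were 5.73 ± 1.04 under AS605240 and 5.18 ± 0.93 under vehicle (SD, n = 7 each). The change of 0.55 ± 0.13 (SE; 95% interval 0.27 to 0.83), a fold of 1.46, had an adjusted p of 0.00926 by limma and an exact two-sided sign-flip p of 0.0156.

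The size of the S1PR1 change rested on P12-ICHIKAWA and TALL-1. It was 1.34 in P12-ICHIKAWA and 1.13 in TALL-1, and between 0.08 (HPB-ALL) and 0.44 (Molt-4) in the other 5 lines. Averaged into 1 line, the pair left 0.44, with an adjusted p of 0.0233 by limma and an exact two-sided sign-flip p of 0.0312 over 6 lines. Without both lines the change was 0.28, a fold of 1.21, with an adjusted p of 0.0314 by limma. For so dim a gene the size of the change depended on the offset, at 0.79 with an offset of 4, 0.55 with 16 and 0.28 with 64. In CCRF-CEM and Jurkat, over 50 with both treatments, the plain signal was 1.28-fold and 1.25-fold higher with the inhibitor.

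**Figure D2:**
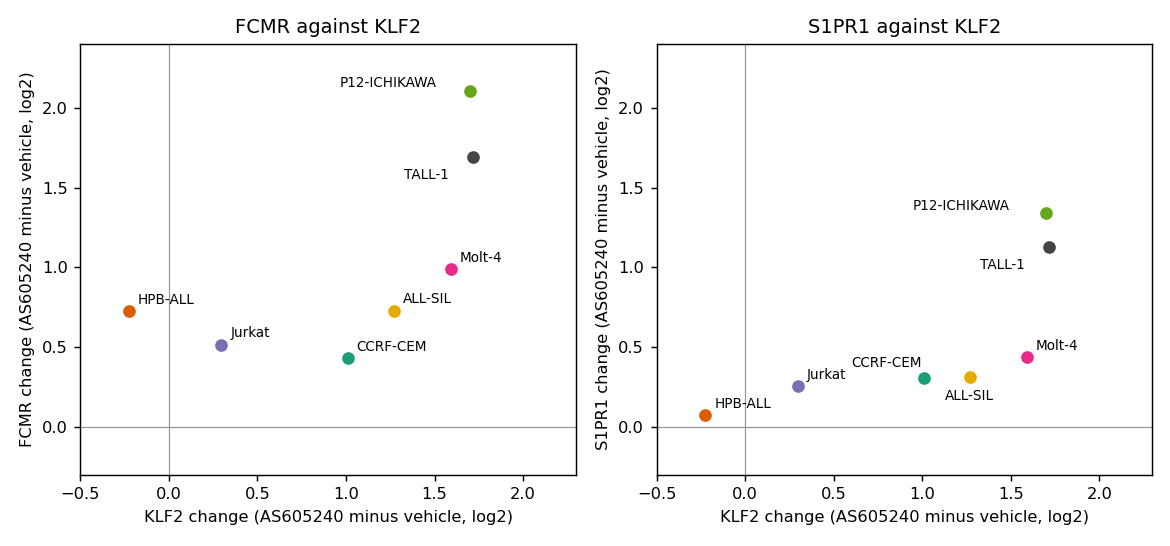
Change of FCMR (left) and S1PR1 (right) against the change of KLF2 in the 7 cell lines, AS605240 minus vehicle, log2(signal + 16), by the brightest probe set of each gene. P12-ICHIKAWA and TALL-1 lie at the upper right in both panels, and HPB-ALL, with a KLF2 change of -0.22, still has an FCMR change of 0.73.

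Across the 7 lines the change of KLF2 ran with that of S1PR1 (Pearson r = 0.744) and of FCMR (r = 0.646). Those of S1PR1 and FCMR had the highest of the 3 values (r = 0.955). With P12-ICHIKAWA and TALL-1 as 1 line these were 0.710, 0.581 and 0.928 over 6 lines. These 2 lines had the largest changes of S1PR1 and of FCMR, and averaging keeps them as 1 extreme point. No r was calculated without both. In the other lines S1PR1 changed least in HPB-ALL (0.08) and FCMR least in CCRF-CEM (0.43), and both changed most in Molt-4 (0.44 and 0.99). The r values are descriptions with no test, since the 3 genes share arrays and the lines number 7. In HPB-ALL the 3 genes parted: its FCMR change was 0.73, its S1PR1 change 0.08 and its KLF2 change -0.22. For the levels under vehicle r was 0.168 for KLF2 and S1PR1, 0.305 for KLF2 and FCMR and -0.501 for S1PR1 and FCMR. The pair with the highest r for the changes thus had a negative r for the levels.

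KLF3 (chr4:38664199-38701517), a repressor of the same family that shares binding sites with KLF2-type factors, did not pass the test with any of its 4 probe sets. With the brightest, 225133_at, the median signal was 40.7 (range 0.0191 to 325) under AS605240 and 46.0 (range 0.00481 to 233) under vehicle. The gene was bright in HPB-ALL and ALL-SIL, near 50 in Molt-4 and Jurkat, and at the floor of the scale in P12-ICHIKAWA and TALL-1. The change was 0.11 (95% interval -0.05 to 0.26, adjusted p 0.385 by limma). The other probe sets gave -0.16 (219657_s_at, adjusted p 0.123), 0.07 (222913_at, 0.691) and -0.04 (225140_at, 0.875), again by limma, so that the 4 did not share a direction.

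CCR7 (chr17:40553769-40565472) split the lines. Under AS605240 its signal with 206337_at was 426 in CCRF-CEM, 118 in HPB-ALL, 15.1 in Jurkat, 26.6 in Molt-4, 160 in P12-ICHIKAWA, 201 in ALL-SIL and 187 in TALL-1. Under vehicle it was 301 in CCRF-CEM, 147 in HPB-ALL, 24.7 in Jurkat, 23.4 in Molt-4, 200 in P12-ICHIKAWA, 199 in ALL-SIL and 175 in TALL-1. It was higher with the inhibitor in 4 lines, most in CCRF-CEM (0.48), and lower in 3, most in Jurkat (-0.39), with a mean change of -0.04 (95% interval -0.24 to 0.16, adjusted p 0.842 by limma). Even the alike lines differed in sign, with -0.30 in P12-ICHIKAWA and 0.08 in TALL-1. The interval leaves out a change as large as the mean change of KLF2 or FCMR.

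IL7R (chr5:35856891-35879603) was bright in HPB-ALL above all. With 226218_at its signal there was 1304 under AS605240 and 1065 under vehicle, while the median of the 7 lines was 6.68 under AS605240 and 4.98 under vehicle. Jurkat followed with 99.6 under AS605240 and 81.0 under vehicle, and no other line reached 50. The mean change was 0.09 (95% interval -0.10 to 0.27, adjusted p 0.588 by limma), and the second probe set, 205798_at, gave 0.11 (adjusted p 0.479 by limma) with 833 under AS605240 and 740 under vehicle in HPB-ALL. In the 2 lines with a bright signal the change was 0.29 (HPB-ALL) and 0.25 (Jurkat).

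CXCR4 (chr2:136114349-136118149) had a bright signal in every line and varied little between them. With 217028_at the signal ranged from 2077 to 4552 (median 3045) under AS605240 and from 1734 to 4226 (median 2753) under vehicle. All 7 lines were slightly higher with the inhibitor, by 0.01 in CCRF-CEM up to 0.26 in ALL-SIL. The mean change of 0.11 (95% interval -0.01 to 0.23, fold 1.08) did not pass limma's test, with an adjusted p of 0.232. The exact two-sided sign-flip p was, however, 0.0156 over 7 lines, and 0.0312 over 6 with P12-ICHIKAWA and TALL-1 averaged. Probe sets 209201_x_at and 211919_s_at gave 0.13 (adjusted p 0.167) and 0.11 (adjusted p 0.261) by limma, each with 6 of 7 lines higher. The upper end of the interval for CXCR4 lay below the lower ends of those for KLF2 and FCMR.

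**Figure D3:**
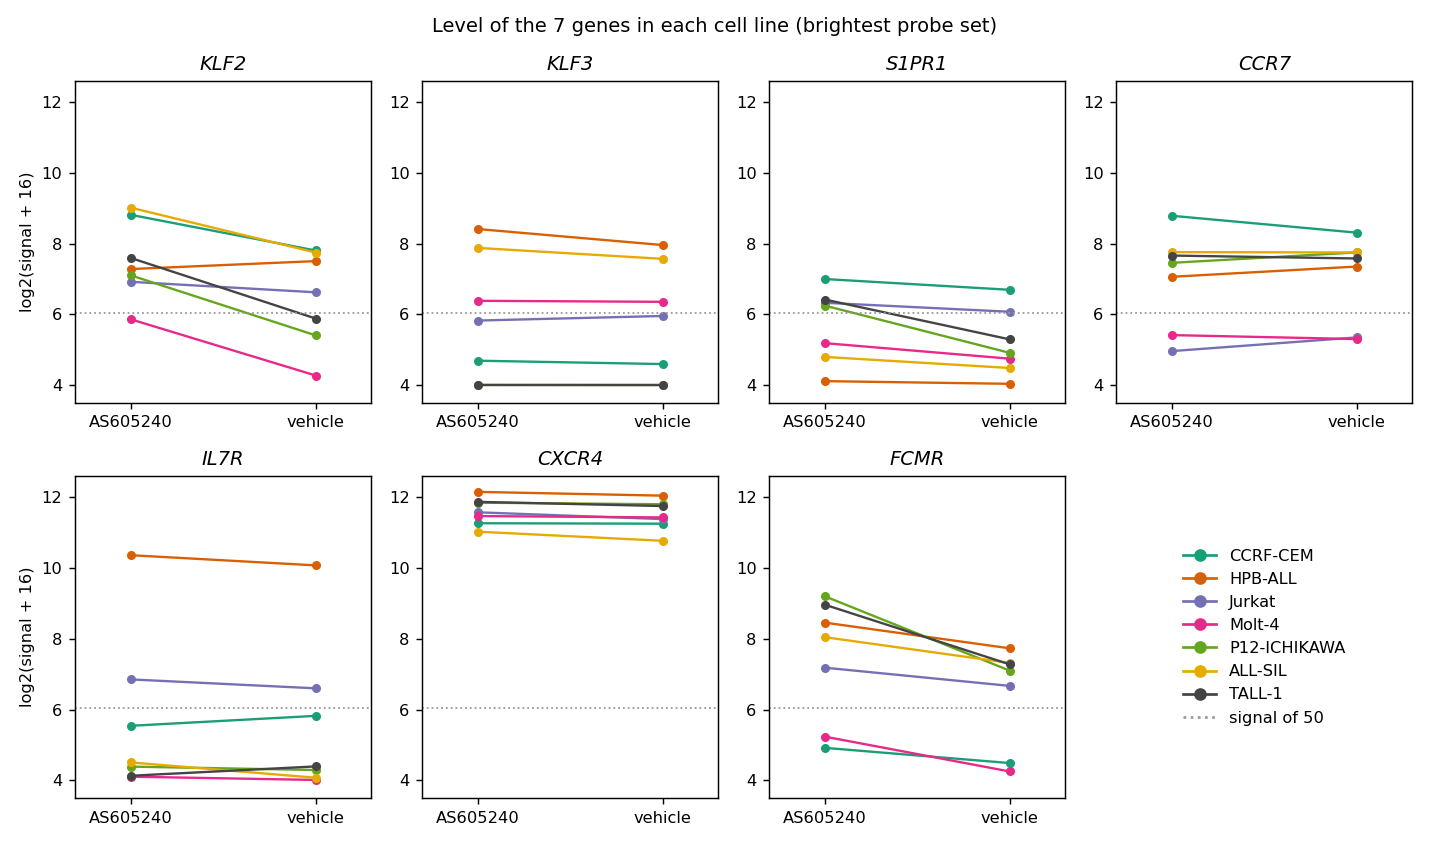
Level of the 7 genes in each cell line under AS605240 (left of each panel) and vehicle (right), log2(signal + 16), by the brightest probe set of each gene; a line joins the 2 arrays of a cell line and the dotted line marks a signal of 50. KLF2, S1PR1 and FCMR slope down toward vehicle in most lines, whereas IL7R and KLF3 are spread between lines and nearly level within them.

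Levels of all 7 genes differed between lines. Over the 21 pairs of lines, differences were tested by limma at an adjusted p under 0.05, with the brightest probe set of each gene. They passed in 13 pairs for KLF2, 20 for KLF3, 14 for S1PR1, 15 each for CCR7, IL7R and CXCR4, and 13 for FCMR, where 32.6% of all tests over probe sets and pairs did. The other KLF3 probe sets passed in 16 to 18 pairs and the dim KLF2 probe set 226646_at in 2. The spread was widest for IL7R, at 6.17 between HPB-ALL and Molt-4, and narrowest for CXCR4, at 1.20 between HPB-ALL and ALL-SIL. For none of the 7 genes did P12-ICHIKAWA and TALL-1 differ by this test, where 0.0653% of all probe sets did. The error of these differences comes from the 2 arrays of each line after the common change is removed.

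In order of mean log2 level over both arrays, KLF2 stood at 8.38 in ALL-SIL, 8.31 in CCRF-CEM, 7.39 in HPB-ALL, 6.77 in Jurkat, 6.74 in TALL-1, 6.25 in P12-ICHIKAWA and 5.07 in Molt-4. Only the last step passed the test (adjusted p 0.0167 by limma), so that the other neighbours were not separated. S1PR1 ran from 6.85 in CCRF-CEM through 6.20 in Jurkat, 5.86 in TALL-1, 5.58 in P12-ICHIKAWA, 4.97 in Molt-4 and 4.64 in ALL-SIL to 4.07 in HPB-ALL, with no step between neighbours past the threshold. FCMR fell into a bright and a dim set: P12-ICHIKAWA (8.15), TALL-1 (8.12), HPB-ALL (8.10), ALL-SIL (7.68) and Jurkat (6.93) stood above Molt-4 (4.74) and CCRF-CEM (4.70), and the step from Jurkat to Molt-4 had an adjusted p of 9.32e-05 by limma. The last 2 were not separated by this probe set (adjusted p 0.954), and 221602_s_at placed Molt-4 (4.45) below CCRF-CEM (4.57), again with no separation (adjusted p 0.837), by limma.

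KLF3 was ordered most clearly with its brightest probe set, 225133_at. The level was 8.19 in HPB-ALL, 7.72 in ALL-SIL, 6.37 in Molt-4 and 5.89 in Jurkat. It was 4.64 in CCRF-CEM and 4.0 in both TALL-1 and P12-ICHIKAWA. Every step but the last passed the test, although CCRF-CEM was itself dim, with a signal of 9.78 under AS605240 and 8.14 under vehicle. The other probe sets did not separate Jurkat from Molt-4, and 219657_s_at and 222913_at placed Jurkat above Molt-4. CCR7 was highest in CCRF-CEM (8.55), then came ALL-SIL (7.76), TALL-1 (7.62), P12-ICHIKAWA (7.60) and HPB-ALL (7.21), where no step between neighbours passed but ALL-SIL and HPB-ALL differed (adjusted p 0.0256 by limma), and it was lowest in Molt-4 (5.36) and Jurkat (5.15). For IL7R the steps from HPB-ALL (10.22) to Jurkat (6.73), to CCRF-CEM (5.68) and to P12-ICHIKAWA (4.34) passed, and the 4 lines from P12-ICHIKAWA down were not separated. CXCR4 spanned 12.10 in HPB-ALL to 10.90 in ALL-SIL, with steps past the threshold from TALL-1 to Jurkat and from CCRF-CEM to ALL-SIL. These levels compare lines for 1 probe set and not genes with each other.

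For each gene, the 3 genes whose log2 values were most like it over the 14 arrays were taken from 9249 genes with a mean log2 of at least 6. KLF2 was followed by FAM8A1 (Pearson r = 0.930), BICRAL (0.913) and RAB8B (0.884), S1PR1 by LIAS (0.946), RPUSD4 (0.923) and PGAP1 (0.921), and FCMR by the diacylglycerol kinase gene DGKA (0.942), HPS3 (0.938) and RPL22 (0.934). The closest to CCR7 was S1PR4 (0.980), another sphingosine-1-phosphate receptor of lymphocytes, then HMGN3 (0.946) and GPX7 (0.937). KLF3 was followed by KLHL5 (0.987), C21orf91 (0.960) and DENND5A (0.956), IL7R by PCDH9 (0.984), SEC61A2 (0.967) and LRIG1 (0.958), and CXCR4 by LYST (0.965), ISG20 (0.945) and EEPD1 (0.943). These values describe arrays that come in 7 pairs, and differences between lines carry most of them.

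Some of these genes also changed with the inhibitor, which is no independent support, since they were picked on treated and vehicle arrays together. At an adjusted p under 0.05 by limma, 11.5% of all 19775 genes were higher. All 3 genes most like S1PR1 were higher, by 0.38 (LIAS), 0.32 (RPUSD4) and 0.44 (PGAP1), and so were all 3 most like CXCR4, which itself did not pass, by 0.40 (LYST), 0.51 (ISG20) and 0.66 (EEPD1). For FCMR, DGKA (0.48) and HPS3 (0.22) passed and RPL22 (0.07, adjusted p 0.538 by limma) did not. For KLF2, FAM8A1 (0.36) and BICRAL (0.31) passed and RAB8B (0.15, adjusted p 0.10 by limma) did not. DENND5A (0.29), listed for KLF3, was higher as well, and none of those most like CCR7 or IL7R passed, with S1PR4 at 0.08 (adjusted p 0.567 by limma).

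Around these genes, 104 genes in 6 lists were measured, each by its brightest probe set. At an adjusted p under 0.05, 33 of the 104 were higher under AS605240 and 4 were lower, where 11.5% and 6.82% of all 19775 genes were. With P12-ICHIKAWA and TALL-1 left out the counts were 23 and 2, and the shares of all genes were not calculated for that fit. Over all probe sets, calls with both thresholds also fell then, from 397 to 311 higher and from 168 to 124 lower. The lists differed widely, and the median change of all genes was 0.01. Counts at an unadjusted p under 0.05 follow for each list, and no share of all genes was calculated at that threshold.

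Other Kruppel-like factors moved in both directions, with 3 of 15 higher, 2 lower and a list median of 0.01 (at an unadjusted p under 0.05, 5 and 2). Of all genes 11.5% were higher and 6.82% lower, with a median of 0.01 as well. With so few genes the counts do not set this list apart from all genes. KLF6, which acts on growth control genes, averaged 8.13 ± 1.61 under AS605240 and 7.60 ± 1.66 under vehicle (SD, n = 7 each), a change of 0.53 with an adjusted p of 0.000101 by limma and a higher value in 7 of 7 lines. The repressor KLF12 rose by the same 0.53 (adjusted p 0.000305 by limma). KLF16 fell by 0.47 (adjusted p 0.000965 by limma), but was over a signal of 50 on 2 of 14 arrays. The remaining calls, named after their values were seen, were KLF7 (0.35) and KLF10 (-0.33), and neither passed without P12-ICHIKAWA and TALL-1 (adjusted p 0.101 and 0.165 by limma).

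The homing and egress list gave 2 of 23 genes higher and 1 lower, where 11.5% and 6.82% of all genes were. Its median was 0.04, and at an unadjusted p under 0.05 there were 4 higher and 5 lower. RGS1, a GTPase activator that dampens signals of chemokine receptors, changed by 1.21, a fold of 2.32, with an adjusted p of 0.00549 by limma. Its signal under AS605240 was 287 in HPB-ALL, 163 in P12-ICHIKAWA, 159 in TALL-1 and 109 in ALL-SIL, and under vehicle it was 33.7 in HPB-ALL, 25.0 in P12-ICHIKAWA, 26.0 in TALL-1 and 47.7 in ALL-SIL. CCRF-CEM, Jurkat and Molt-4 stayed under 50 with both treatments. HPB-ALL, the line in which KLF2 was not higher, had the largest RGS1 change (2.61). Without P12-ICHIKAWA and TALL-1 the RGS1 change was 0.86, with an adjusted p of 0.0728 by limma. ITGA4, the alpha chain of the VLA-4 integrin, was higher by 0.34 (adjusted p 0.00311) and ARRB1, a beta-arrestin, lower, with a change of -0.28 (adjusted p 0.0237, and 0.0504 without P12-ICHIKAWA and TALL-1), all by limma.

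Of 16 other chemokine receptors measured, 0 passed in either direction by limma, with 1 higher and 0 lower at an unadjusted p under 0.05, and the list median was 0.01. Without CCRF-CEM, 1 passed as higher. The 3 with the smallest p were ACKR3 (0.18, adjusted p 0.0889), CCRL2 (-0.13, 0.276) and CCR8 (-0.13, 0.374), by limma. Most of these receptors were dim, and ACKR3 was over 50 on 8 arrays, CCR8 on 4 and CCRL2 on 1.

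IL-7 receptor signaling gave 5 of 14 genes higher and 0 lower (at an unadjusted p under 0.05, 5 and 1), with a list median of 0.05, while IL7R itself did not pass. PIM1, a kinase gene that STAT5 induces, averaged 7.38 ± 1.67 under AS605240 and 6.55 ± 1.70 under vehicle (SD, n = 7 each), a change of 0.82 and a fold of 1.77 with an adjusted p of 0.000136 by limma. SOCS2, a feedback inhibitor, changed by 0.51 (adjusted p 0.000583) and the kinase gene JAK1 by 0.42 (adjusted p 0.00156), by limma. STAT5A (0.51) and STAT5B (0.33), named after their values were seen, made up the 5, and all 5 passed with P12-ICHIKAWA and TALL-1 left out. The receptor chain IL2RG (0.05, adjusted p 0.652 by limma) and BCL2 (-0.04, adjusted p 0.856 by limma), a survival gene, did not pass.

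FOXO factors and genes that depend on them moved most as a list, with 15 of 20 higher, 1 lower and a median of 0.39 (at an unadjusted p under 0.05, 17 and 1). With 1 line left out at a time, 13 to 16 were higher. Some calls, named after their values were seen, did not pass by limma without P12-ICHIKAWA and TALL-1. These were FOXO3 (adjusted p 0.0766), SESN1 (0.0818), SESN3 (0.0804) and FBXO32 (0.234), while the rest of those called higher still passed. CCNG2, a cyclin of arrested cells, averaged 10.45 ± 0.45 under AS605240 and 9.30 ± 0.57 under vehicle (SD, n = 7 each), a change of 1.15 with an adjusted p of 5.11e-06 by limma. IRS2 (0.83, adjusted p 0.000331) and INSR (0.51, adjusted p 0.000199), which carry insulin signals, were also higher in 7 of 7 lines, by limma. FOXO1 itself was higher by 0.43 (adjusted p 0.000924 by limma) but over a signal of 50 on 0 arrays. In HPB-ALL, where KLF2 was not higher, the CCNG2 change was 0.99. FOXO6, named after its value was seen, was the gene that fell (by 0.32), and TXNIP (0.38, adjusted p 0.167 by limma) did not pass.

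Among genes of naive and quiescent T cells, 8 of 16 were higher and 0 lower, with a median of 0.23 (at an unadjusted p under 0.05, 9 and 1). SLFN5 changed by 0.58 (adjusted p 0.00176), MAL, a T-cell membrane protein gene, by 0.49 (adjusted p 0.000451) and FOXP1, known from mice to keep naive T cells quiescent, by 0.43 (adjusted p 0.00196), by limma. The other 5, named after their values were seen, were SATB1, BTG1, TSC22D3, ETS1 and GFI1, at 0.21 to 0.49. The count fell with fewer lines: it was 3 with P12-ICHIKAWA and TALL-1 left out, and 5 without any 1 of Molt-4, P12-ICHIKAWA or ALL-SIL.

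**Figure D4:**
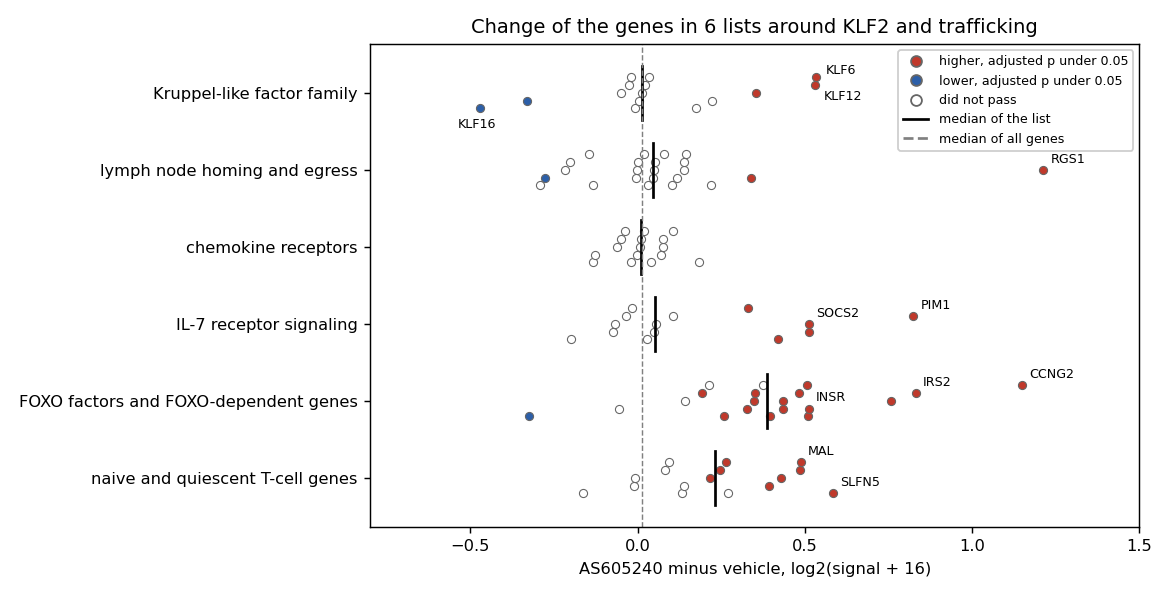
Change of the genes of 6 lists around KLF2 and trafficking, AS605240 minus vehicle, log2(signal + 16), 1 point per gene by its brightest probe set. Red points are higher and blue points lower at an adjusted p under 0.05, the black bar is the median of the list and the dashed line that of all genes (0.01); the FOXO list (median 0.39) and the naive and quiescent list (0.23) lie to the right, and the chemokine receptors (0.01) do not.

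Controls of the arrays also moved a little. Poly-A spike-ins, which are added to the RNA before labeling, were higher by 0.22 ± 0.17 with AS605240 (SD, n = 7), in 7 of 7 lines and by 0.55 in Molt-4. Hybridization controls changed by 0.05 ± 0.23, with -0.46 in P12-ICHIKAWA. The part of these shifts in the results was not tested. With each array centred on its median, KLF2 changed by 1.02, FCMR by 0.99 and S1PR1 by 0.52, and all 3 passed.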

How the data were processed

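Total RNA of 7 T-ALL cell lines, kept for 6 h in AS605240 or in vehicle, was measured on 14 HG-U133 Plus 2.0 arrays. The authors deposited linear signal intensity values, 1 per probe set and array, summarized with iterPLIER; PLIER and Affymetrix Expression Console 1.3.1.187 are listed in the submitters' processing notes. How arrays were normalized is not stated in the sources used here. The offset of 16 from the study's methods was added and log2 taken here. Of 54675 probe sets, 62 were controls and 11721 had no gene symbol. Symbols came from the platform annotation, updated through RefSeq gene IDs for 41037 of 41091 single-gene probe sets.

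AS605240 and vehicle were compared with limma 3.58.1 in R 4.3.3 (lmFit, eBayes), with cell line as a block, as in the study's paired analysis; the pairs are arrays of the same line. Calls needed an adjusted p under 0.05, with a fold change over 1.5 where stated. The fit was tested on simulated data. The sign-flip test enumerated 128 patterns for 7 lines and 64 for 6. With no repeat arrays, the spread is that between lines, and the number of arrays limits the precision. Named were all 7 genes, the 3 genes with the lowest p in each list and the 3 genes most like each member. Members, lists and tests were chosen with earlier results of these data known, and the motifs after the promoters had been read. Alternatives covered the offset, normalization, filters, the block and left-out lines.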

Additional observations from a re-analysis of the deposited data

Results flagged for a closer look

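KLF2 was lower with AS605240 in 1 line and higher in the other 6: the change with 219371_s_at was -0.22 in HPB-ALL and 0.30 to 1.71 in the rest. The difference was not tested, since each line has 1 array per treatment.

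IL7R under vehicle was far higher in HPB-ALL than in the other lines, at 10.08 on the log2 scale with 226218_at. The gap to the next line was 0.573 of the range of the 7 lines, just above Dixon's 95% critical value for 7 samples. Of 30 groups of 7 arrays looked at, this was the only one past that value, and chance alone gives about 1 in 20.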

How the results depend on the processing

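Calls of KLF2, FCMR and S1PR1 and the directions of their changes held in every alternative run that kept the pairing and tested them. Adjusted p was up to 0.0453 for KLF2, 0.0299 for FCMR and 0.047 for S1PR1 by limma. S1PR1 was not tested under the filter for a signal over 50 in at least 7 arrays, which removed it. The fold of S1PR1 passed 1.5 with an offset of 4 (1.72) and without any 1 of CCRF-CEM, HPB-ALL, Jurkat and ALL-SIL (1.51 to 1.55). Without the block for cell line, the changes were still 1.05 for KLF2, 0.55 for S1PR1 and 1.03 for FCMR, but each adjusted p was 1.0 by limma, the counts of member probe sets called higher were 0 with and without the fold threshold, and 0 listed genes were higher and 0 lower. CXCR4 217028_at passed with an offset of 64 (0.11, adjusted p 0.0488 by limma). Listed genes called lower numbered 4, against 1 with an offset of 4, 8 with arrays centred on the median and 2 without P12-ICHIKAWA and TALL-1; those called higher were then 25, 30 and 23, against 33. In the homing and egress list, 4 genes were lower with arrays centred on the median, 3 with trend and robust eBayes (1 higher) and with the filter below, 2 with an offset of 64 (4 higher) and 0 with an offset of 4 or without P12-ICHIKAWA and TALL-1, against 1 lower and 2 higher.

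Leaving out 1 line at a time gave 0.94 to 1.26 for KLF2, 0.85 to 1.13 for FCMR, 0.42 to 0.63 for S1PR1, 0.05 to 0.15 for KLF3, -0.13 to 0.02 for CCR7, 0.03 to 0.15 for IL7R and 0.09 to 0.13 for CXCR4. Member probe sets called higher were 3 to 4 with the fold threshold, 4 each time by adjusted p alone, and 0 were called lower each time. Listed genes higher ranged from 28 to 35 and lower from 1 (without P12-ICHIKAWA) to 5. Over all probe sets, 397 were higher and 168 lower with both thresholds, against 787 and 278 with an offset of 4, 113 and 74 with an offset of 64, and 14 and 4 without the block. A filter for a signal over 50 in at least 7 arrays removed every probe set of KLF3, S1PR1 and IL7R, so that dim signal limits what can be said of them. Under that filter 1 of the listed chemokine receptors passed as higher.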
